A study of Arabidopsis thaliana with 9 samples.

Results

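PYE, BHLH101 and AT1G47400 are 3 genes of the iron deficiency response of Arabidopsis thaliana. Each had 1 probe set that the platform annotation assigned to a single gene, and they are 3 of the 13350 genes named in this way. Such probe sets made up 13513 of the 22810 on the ATH1 array. The genes were chosen from results of the HAP5 triple mutant against wild type, so their values in that comparison are given as a description, with no test.

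Plants meet low iron with a transcriptional cascade built on basic helix-loop-helix (bHLH) proteins. PYE (POPEYE) is such a protein, known from roots to repress genes of iron transport and chelation. BHLH101 belongs to the small bHLH subgroup whose members pair with FIT to switch on iron uptake genes of the root. AT1G47400 encodes a short peptide of the IRON MAN family, which lowers the activity of the ubiquitin ligase BTS and so protects bHLH activators higher in the cascade. All 3 transcripts are known to rise when iron is scarce.

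Transcripts were measured on 9 arrays, 3 of each of 3 genotypes, in plants of 10 days. The HAP5 triple mutant carries T-DNA knockouts in genes for a subunit of the CCAAT-binding complex, and the labels list it under Col-0. The constans mutant lacks a regulator of flowering by day length, and the labels give no background for it. The wild type was Col-1, so genotype and background cannot be told apart. All groups grew in the same fertilised soil mix at 22 °C with 16 h light and 8 h dark, and above-ground tissue was taken 14 h after lights on. No label names an iron treatment or a measured iron content.

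The unit is the MAS5 signal, a linear intensity that the authors scaled to the same trimmed mean on each array. The leaf markers RCA (Rubisco activase) and LHCB4.1 (an antenna protein) were bright on every array, at 4944 to 6641 and 4382 to 6126, while the root hair gene EXPA7 was at 0.632 to 14.99. These were 2 of 8 leaf markers and 1 of the 2 root markers, of 8, with a single-gene probe set. The other root marker, PYK10, is also expressed in hypocotyls and stood at 174 to 286. In bulk tissue, fewer cells of a type and less RNA per cell cannot be told apart. A control probe set for 25S ribosomal RNA ran at 15.9 to 42.4 on triple mutant arrays, 56.5 to 1152 on constans arrays and 22.6 to 418 on wild-type arrays. The ratio of 3′ to 5′ signal of GAPDH, a sign of RNA integrity, was 2.32 to 3.10, 2.72 to 4.46 and 1.80 to 3.48 in the same order. The same ratio for actin was higher, at 18.1 to 33.4, 23.9 to 28.2 and 16.9 to 24.2, and its highest value was on triple mutant 3. The part of these ratios in the results was not tested. The number of arrays limits the precision, and no label states that replicates were separate plants or pools, so a p-value here reflects array-to-array spread that may be technical.

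AT1G47400, the peptide gene, gave signals of 622, 834 and 596 on triple mutant arrays 1, 2 and 3. The constans arrays read 311, 285 and 203, and the wild-type arrays 385, 283 and 270, in the same order. The triple mutant arrays lay above all 6 others, while the constans and wild-type arrays overlapped. Triple mutant, constans and wild-type means were 684 ± 130, 266 ± 56.4 and 313 ± 63.1 (SD, n = 3). On the log2 scale the triple mutant differed from wild type by 1.13 ± 0.18 (SE, from the limma fit), or 2.19-fold, and 16 of the 14173 probe sets tested had a larger positive change. The related peptide gene AT1G47395 is the neighbour of AT1G47400 in the TAIR10.1 gene order. It had no single-gene probe set in the annotation, and whether its transcript also binds the AT1G47400 probe set was not tested.

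PYE, the bHLH repressor (locus AT3G47640), gave 90.8, 101 and 72.3 on the triple mutant arrays. The constans arrays read 66.3, 61.8 and 44.0, and the wild-type arrays 55.5, 47.9 and 40.4. Again every triple mutant array exceeded every other array, and the lower groups overlapped each other. The margin was small against the constans mutant, where the lowest triple mutant array stood at 72.3 and the highest constans array at 66.3. Group means were 88.2 ± 14.7, 57.4 ± 11.8 and 47.9 ± 7.51 (SD, n = 3) in that order. The triple mutant differed from wild type by 0.88 ± 0.19 on the log2 scale, or 1.84-fold, with 40 probe sets at a larger positive change.

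BHLH101, the partner of FIT (locus AT5G04150), was dim. The triple mutant arrays read 20.4, 39.9 and 19.2, the constans arrays 9.31, 15.5 and 9.47, and the wild-type arrays 14.0, 20.4 and 14.8. The triple mutant lay above the constans mutant on every array but overlapped wild type, since wild type 2 was as bright as triple mutant 1. The means were 26.5 ± 11.6, 11.4 ± 3.50 and 16.4 ± 3.50 (SD, n = 3). A probe set was tested if the geometric mean signal of at least 1 genotype reached 18.65. BHLH101 reached this only in the triple mutant, at 25.01, against 11.1 in the constans mutant and 16.2 in wild type, while PYE and AT1G47400 reached it in all 3 genotypes. The difference between the triple mutant and wild type was 0.63 ± 0.35 on the log2 scale, or 1.55-fold, with 119 probe sets at a larger positive change. It was 0.29 ± 0.38 without triple mutant 2, the array with the brightest signal.

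**Figure D1:**
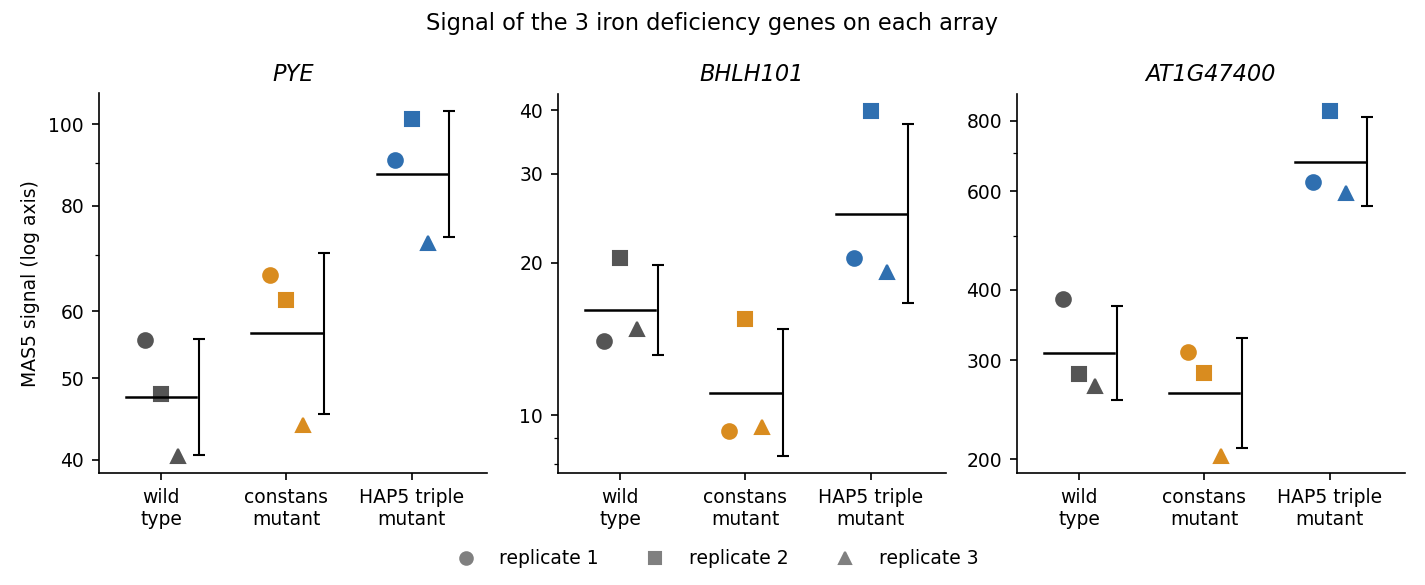
MAS5 signal (log axis) of PYE, BHLH101 and AT1G47400 on each of the 9 arrays, with wild type in grey, the constans mutant in orange and the HAP5 triple mutant in blue. Horizontal lines are means on the log2 scale and bars are ± SD of 3 arrays. The triple mutant points sit above all others for PYE (72.3 and up) and AT1G47400 (596 and up), but reach down to 19.2 for BHLH101, below wild type 2 at 20.4.

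Between the triple mutant and wild type, 2 of the 3 genes had arrays that did not overlap, with the triple mutant higher. Over all tested probe sets 7.29% did so in this direction, and 0.0917% passed an adjusted p under 0.05 in either direction. Nothing is read from these counts, since this comparison chose the genes. Triple mutant 2 was the brightest of the 9 arrays for all 3 genes.

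Setting constans arrays against wild type asks whether a mutant of another flowering regulator differed in these genes. They were chosen from the triple mutant against wild type and not from this comparison, though it shares the wild-type arrays. Earlier results of these data were known at that choice, so the tests here are not fully free of it. Neither AT1G47400 nor PYE passed, where 1.4% of all tested probe sets did. The arrays of the groups overlapped for AT1G47400 and PYE, where 14.4% of all tested probe sets had no overlap in either direction. AT1G47400 had a log2 difference of -0.24 ± 0.18 (limma, adjusted p = 0.691), with a 95% interval of -0.62 to 0.14. PYE had a difference of 0.25 ± 0.19 (adjusted p = 0.699, interval -0.16 to 0.65). BHLH101 was under the limit for testing in both of these genotypes and entered the fit only through the triple mutant, so it is not counted here. Its difference was -0.54 ± 0.35 (adjusted p = 0.630, interval -1.30 to 0.21), and with all probe sets kept regardless of brightness it was -0.54 ± 0.37 (adjusted p = 0.724). Over the alternative settings the adjusted p (limma) ran from 0.281 to 0.986 for AT1G47400 and 0.500 to 0.903 for PYE. For BHLH101, with the limit just given, it ran from 0.474 to 0.865.

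The triple mutant was set against the constans mutant to see where the mutants differed. It shares the triple mutant arrays with the comparison that chose the genes, and no test is given. The log2 differences were 1.37 ± 0.18 for AT1G47400 (2.58-fold), 1.17 ± 0.35 for BHLH101 (2.26-fold) and 0.63 ± 0.19 for PYE (1.55-fold). The arrays did not overlap for any of the 3 genes, and 11.5% of all tested probe sets had the triple mutant above the constans mutant in this way.

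**Figure D2:**
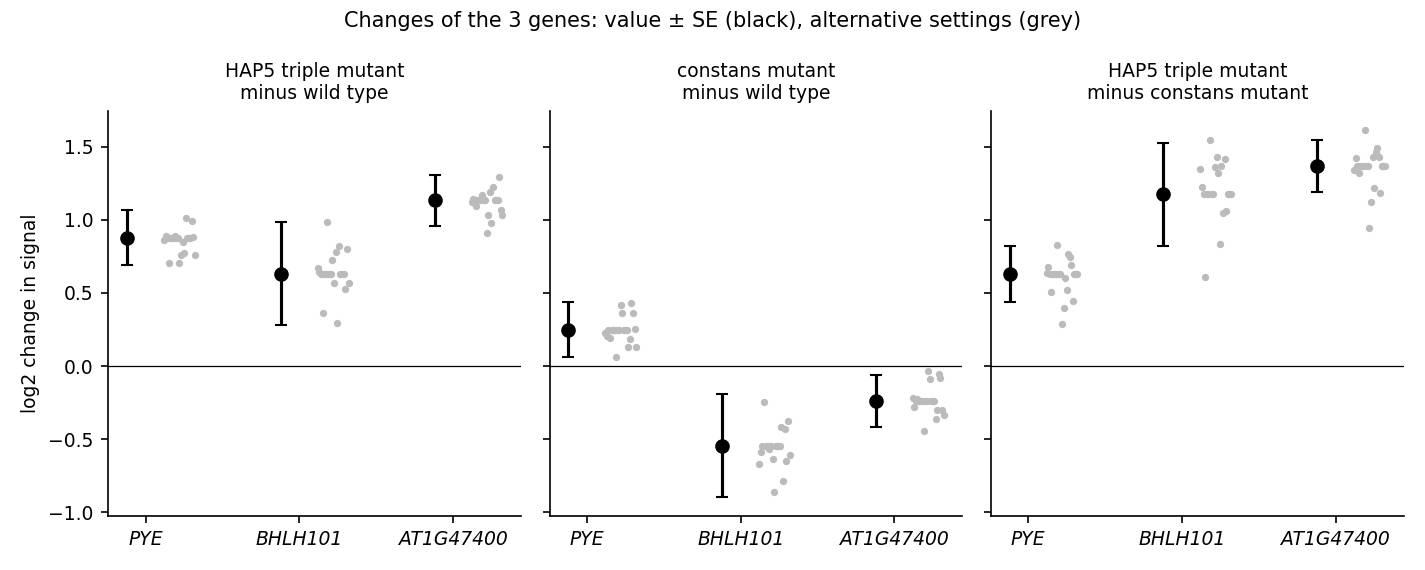
Log2 change in signal of PYE, BHLH101 and AT1G47400 in the 3 comparisons. Black points with bars are the fitted value ± SE and grey points are the same value under each alternative setting. All triple mutant values are above 0, from 0.29 upwards against either group, while the changes in the constans mutant against wild type run from -0.86 to 0.43.

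**Figure D3:**
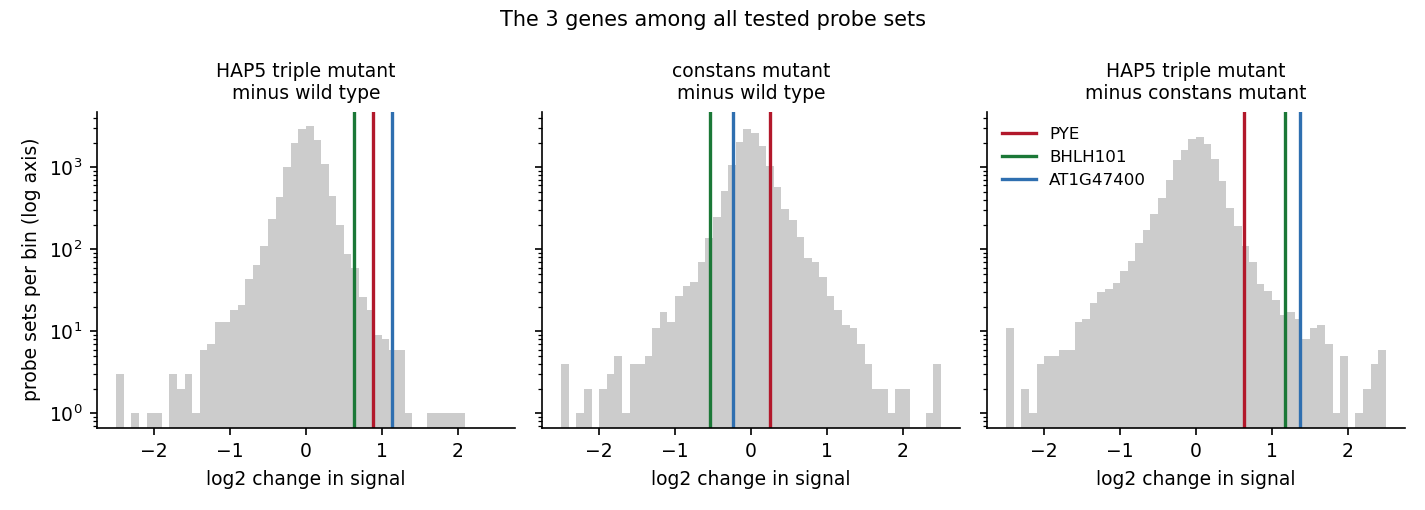
Distribution of the log2 change over the 14173 tested probe sets in each comparison (grey, log axis), with PYE, BHLH101 and AT1G47400 as coloured lines. Values beyond the axis are counted in the end bins. The genes stand in the right tail for the triple mutant, at 0.63, 0.88 and 1.13 against wild type, and on both sides of 0 for the constans mutant against wild type.

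The 25S ribosomal RNA signal was in part aligned with genotype, but it also ranged widely among the constans arrays and among the wild-type arrays. Its part in these differences was not tested beyond the following values. Wild type 1, with a 25S signal of 22.6, fell between the triple mutant values, and constans 1 lay near it at 56.5. On wild type 1 AT1G47400 was at 385, PYE at 55.5 and BHLH101 at 14.0, and on constans 1 they were at 311, 66.3 and 9.31. Each of these values was below all 3 triple mutant arrays. Within wild type, AT1G47400 and PYE fell as the 25S signal rose from 22.6 to 418. Constans 1 had the lowest 25S signal of the constans arrays and the highest signal of both genes. BHLH101 did not have this order. For AT1G47400 and PYE it did not hold throughout. Constans 2 had a higher 25S signal than constans 3 (1152 against 1079) and a higher signal of both genes. Triple mutant 3 had the lowest 25S signal, 15.9, and the lowest signal of both genes among the triple mutant arrays. With the log2 25S signal as a covariate, the difference between the triple mutant and wild type was 0.91 ± 0.16 for AT1G47400, 0.70 ± 0.20 for PYE and 0.73 ± 0.41 for BHLH101. Without constans 2, constans 3 and wild type 3, whose 25S signal was above 400, it was 1.03 ± 0.16, 0.76 ± 0.17 and 0.57 ± 0.36. The difference of PYE from the constans mutant, 0.63 in the full fit, was 0.29 ± 0.25 with the covariate and 0.40 ± 0.21 without these arrays. The same difference was 0.94 ± 0.21 and 1.12 ± 0.20 for AT1G47400, and 1.36 ± 0.53 and 1.43 ± 0.46 for BHLH101.

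**Figure D4:**
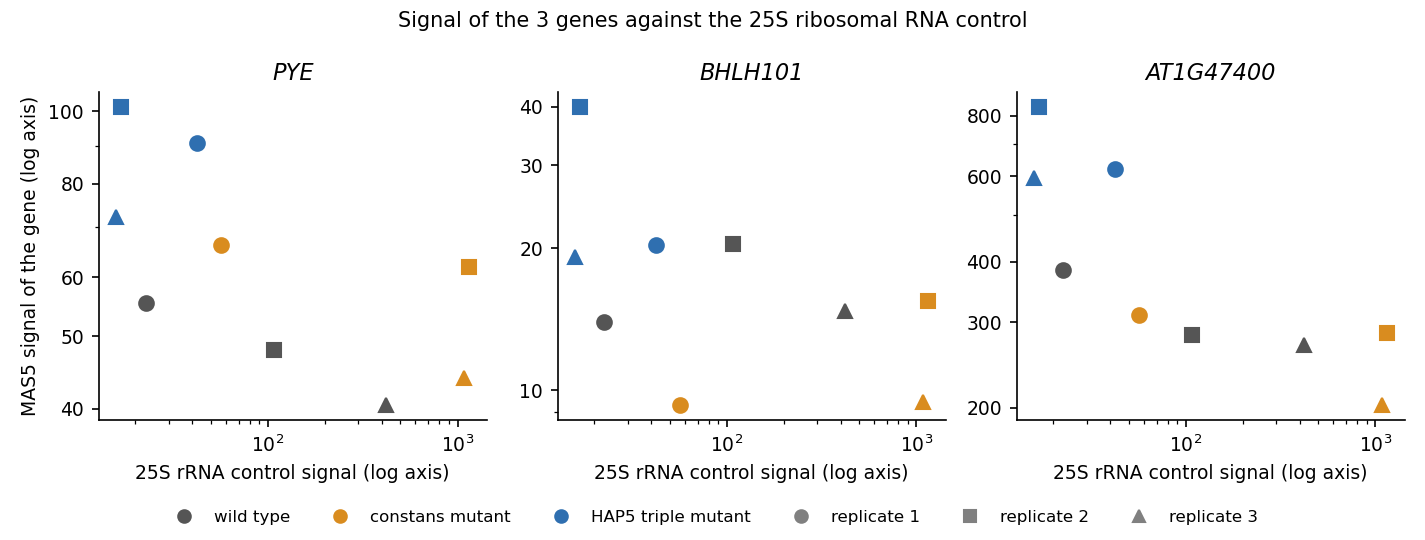
MAS5 signal of PYE, BHLH101 and AT1G47400 against the signal of the 25S ribosomal RNA control, both on log axes, 1 point per array. Triple mutant arrays (blue) have the 25S signals 15.9, 16.9 and 42.4. Wild type 1 (grey circle), at a 25S signal of 22.6, lies below the blue points in all 3 panels. For PYE and AT1G47400 it is the highest of the wild-type points.

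A list of 70 other genes of iron homeostasis put the 3 genes in context. The list was drawn up with earlier results of these data known, and its genes share the same arrays. Medians and counts of signs over it are therefore a description, and tests of its genes are not independent of those results. Only 18 of them, with 19 probe sets, had a single-gene probe set, and 10 were bright enough to be tested. The named probe sets covered 11 of 19 regulators, 2 of 14 uptake genes, 2 of 21 transport genes, 3 of 6 further markers of iron deficiency, and none of the 2 other peptide genes and 8 storage genes. The uptake genes IRT1 and FRO2, the ferritin genes and the PYE targets NAS4, FRO3 and ZIF1 were therefore not analysed here.

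Of the 10 genes, none passed between the triple mutant and wild type (limma, adjusted p 0.583 or higher), where 0.0917% of all tested probe sets did. An unadjusted p under 0.05 was found for 1 of the 10 and for 923 of all 14173. Their median log2 change was 0.12, against 0.0065 over all tested probe sets, and 9 of the 10 changes were positive, against 7280 of 14173. AT5G05250, a protein gene placed on the list as a marker of iron deficiency, came first at 0.80 ± 0.27 (adjusted p = 0.583). The mitochondrial iron importer genes MIT2 (AT1G07030) and MIT1 (AT2G30160) followed at 0.27 ± 0.26 and 0.23 ± 0.15, and AT3G56360 at 0.21 ± 0.11. The arrays of the triple mutant and wild type overlapped for all 10, while 7.29% of all tested probe sets had the triple mutant above wild type with no overlap.

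The bHLH activators that act upstream of the 3 genes did not pass either. Between the triple mutant and wild type their log2 differences were 0.03 ± 0.20 for bHLH34, 0.02 ± 0.14 for bHLH104, 0.16 ± 0.13 for ILR3, 0.09 ± 0.14 for bHLH115 and 0.06 ± 0.14 for bHLH121 (adjusted p 0.902 to 0.994). ILR3 and its relatives are known to be regulated in part through protein stability, which arrays do not measure and which was not tested.

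Between the constans mutant and wild type none of the 10 passed (limma, adjusted p 0.599 or higher), where 1.4% of all tested probe sets did. An unadjusted p under 0.05 was found for none of the 10 and for 1600 of all 14173, so counts this low in 10 genes are near the background. The median log2 change was -0.02, against -0.0020 for all tested probe sets, and 4 of the 10 were positive, against 7025 of 14173. The largest differences were those of bHLH34 at -0.32 ± 0.20, AT5G05250 at -0.28 ± 0.27, ILR3 at -0.17 ± 0.13 and bHLH121 at -0.10 ± 0.14.

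Between the mutants 1 of the 10 passed, against 3.38% of all tested probe sets, and 2 had an unadjusted p under 0.05, against 2514 of all 14173. AT5G05250 read 168, 236 and 144 on triple mutant arrays, 94.9, 97.2 and 65.4 on constans arrays, and 150, 116 and 62.3 on wild-type arrays. The triple mutant arrays lay above all constans arrays but overlapped wild type, and triple mutant 2 was the brightest, as for the 3 genes. AT5G05250 exceeded its constans level in the triple mutant by 1.08 ± 0.27 on the log2 scale, or 2.11-fold (limma, adjusted p = 0.0419). It passed in 10 of 21 alternative settings, with adjusted p from 2.28e-03 to 0.855. The call ended without triple mutant 1, 2 or 3 (0.101, 0.191 and 0.0554), constans 2 or 3 (0.0825 and 0.170) or wild type 2 (0.0535). With the 25S covariate its difference was 0.44 ± 0.33 (adjusted p = 0.855). Next came bHLH34 at 0.35 ± 0.20 (0.379), ILR3 at 0.33 ± 0.13 (0.212) and MIT2 at 0.28 ± 0.26 (0.617). The median change of the 10 was 0.23, against -5.2e-05 over all, and 8 were positive, against 7084 of 14173. The arrays of 3 of the 10, ILR3, AT3G56360 and AT5G05250, lay higher in the triple mutant with no overlap between the mutants, as did 11.5% of all tested probe sets. The root marker PYK10 ran the other way, with 174 to 222 in the triple mutant and 249 to 286 in the constans mutant (log2 difference -0.47 ± 0.11, adjusted p = 0.0382), and its part in these differences was not tested. The summed signal of the 2 root markers was 181 to 228 on triple mutant arrays, 249 to 290 on constans arrays and 197 to 223 on wild-type arrays.

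**Figure D5:**
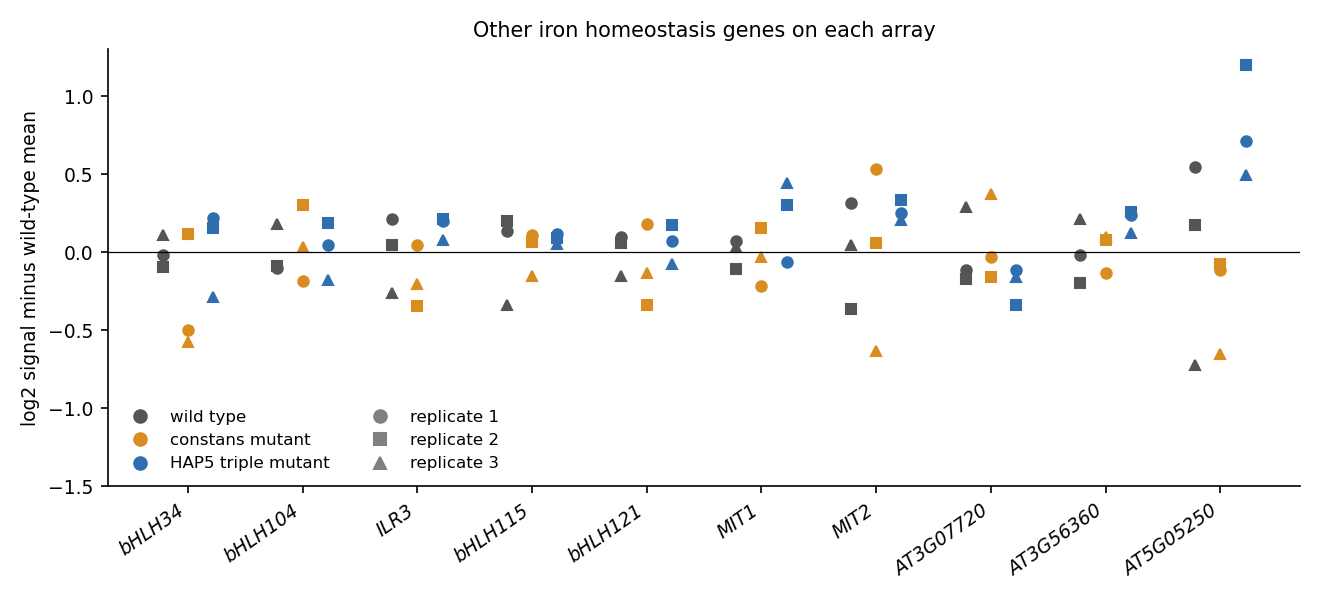
Log2 signal of 10 other iron homeostasis genes on each array, minus the mean of the 3 wild-type arrays of that gene. Colours show genotype and shapes the replicate number. Most genes stay close to 0 in all genotypes, with triple mutant means within -0.20 to 0.27 of wild type, and AT5G05250 has a triple mutant mean 0.80 above it.

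The other 9 probe sets on the list were too dim to be tested. They covered the BTS relatives BTSL1 (AT1G74770, 2 probe sets) and BTSL2 (AT1G18910), the bHLH genes AT2G22750, AT2G22760, NAI1 and AT4G37850, and the coumarin genes F6'H1 (AT3G13610) and S8H (AT3G12900). Coumarins are secreted by roots to mobilise iron, and S8H makes fraxetin, which reduces it. S8H read 14.7, 15.7 and 22.4 on triple mutant arrays, 5.07, 2.33 and 2.40 on constans arrays, and 1.81, 9.48 and 0.718 on wild-type arrays. Its triple mutant arrays lay above all others, but their mean was under the limit for testing. When dim probe sets were kept in the fit, the S8H difference between the triple mutant and wild type was 2.73 ± 0.79 on the log2 scale and did not pass (adjusted p = 0.614). F6'H1, which acts before S8H, ranged from 0.469 to 7.84 over the 9 arrays with no such order. Other dim probe sets on the list also separated by genotype. For AT2G22760 the constans arrays lay above all others (5.93 to 7.16). For AT4G37850 the wild-type arrays lay below all others (0.352 to 0.538), but under the floor of 1.029 set before log2. The triple mutant arrays lay below all others for a BTSL1 probe set (0.213 to 0.234), whose 9 values were all under that floor. The arrays of the other BTSL1 probe set overlapped between all genotypes. S8H was named after its values were seen, and the share of all dim probe sets that separate was not computed.

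For each of the 3 genes, the single-gene probe sets with the most similar log2 signal were sought among the other 7690 tested ones. Pearson's r over the 9 arrays served as the measure of likeness. It is a description, since the arrays share genotypes and the probe sets share arrays. AT1G47400 was most like CDI (r = 0.967), AT5G22580 (0.961) and SBE2.2, a starch branching enzyme gene (0.947). CDI read 401 to 524 on triple mutant arrays, 208 to 269 on constans arrays and 270 to 296 on wild-type arrays. PYE was most like AT4G25170 (0.957), PRA1.E (0.939) and AT5G36160 (0.938). BHLH101 was most like AT5G48790 (0.910), AT2G29660 (0.907) and AT5G63990 (0.902).

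Among themselves the 3 genes were unequally alike. They were chosen from a comparison on these same arrays, so likeness between them is in part given by that choice. Nothing is read from the ranks. AT1G47400 ranked 8 of 7690 in likeness to PYE (r = 0.896), and PYE ranked 23 in likeness to AT1G47400. AT5G05250 ranked 11 for AT1G47400 (r = 0.909) and 24 for PYE (0.855). For BHLH101, AT1G47400 ranked 59 (0.790), AT5G05250 ranked 74 (0.777) and PYE only 400 (0.628). The marker AT3G07720 ran against all 3 genes, with r of -0.720 for AT1G47400, -0.743 for PYE and -0.707 for BHLH101, over a narrow signal range of 68.5 to 113.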

How the data were processed

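The authors deposited MAS5 intensity on a linear scale, 1 value per probe set and array, scaled to a trimmed mean of 100.0 on every array, as the values show. MAS5 and GCOS are named, with no version, per the submitters' processing notes. The genome build is not given in the sources used here, so no positions are given, and no sequences were printed.

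The 64 control probe sets were left out. Values were floored at the pooled 10th percentile (1.029) before log2. Probe sets whose geometric mean reached the 40th percentile of such means (18.65) in at least 1 genotype were tested, 14173 in all. A single model of all 9 arrays was fitted with limma 3.58.1 (R 4.3.3; lmFit, eBayes with trend, no covariate), with Benjamini-Hochberg adjustment over all tested probe sets and a threshold of 0.05. The fit was tested on simulated data. Tables were read with pandas 2.3.3. Names came from the platform annotation, matched to locus tags through TAIR10.1. Of the probe sets, 13513 had 1 gene name, 503 several and 8730 none.

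The members, lists and alternatives were chosen with earlier results of these data known. Named genes are the 3 members, listed iron genes that were called or had the 4 largest changes per comparison, the 3 probe sets most like each member, and the leaf and root markers. S8H, F6'H1, the values of the other dim probe sets, bHLH104, bHLH115 and AT3G07720 were added after their values were seen. AT3G56360, bHLH34, ILR3 and bHLH121 were among the 4 largest changes in at least 1 comparison. Their values in comparisons where they were not were added in the same way. Alternatives changed the scaling (quantile, or centring on the median), the floor (none, or adding 16 before log2), the filter (none, or the 60th percentile), the eBayes trend (none) and the weights (per array). Other fits used the compared genotypes alone, blocked on replicate number, took 25S signal as a covariate, dropped arrays whose 25S signal exceeded 400, or dropped each array in turn.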

Additional observations from a re-analysis of the deposited data

How the results depend on the processing

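The changes of PYE, BHLH101 and AT1G47400 kept their direction in all 3 comparisons under every alternative that tested them. No alternative gave a call for PYE or AT1G47400 in constans against wild type. BHLH101 is not counted there, since it entered the fit only through the triple mutant. BHLH101 was not tested with the filter at the 60th percentile, nor between the constans mutant and wild type in a fit of those 2 genotypes alone. Between the mutants, 3 differences moved by more than the spread between replicates. With the 25S covariate AT1G47400 came to 0.94 and PYE to 0.29 on the log2 scale, and with a pseudocount of 16 BHLH101 came to 0.61. Of the 10 other iron genes, 1 was called between the mutants, and 0 with quantile normalization, no filter, no trend, the 25S covariate or without the arrays of high 25S signal, and 0 to 1 when an array was left out. The other comparisons gave 0 throughout. Over all probe sets the calls went from 13 to between 4 (no trend) and 99 (array weights) for the triple mutant against wild type, from 198 to between 37 (without the arrays of high 25S signal) and 275 for the constans mutant, and from 479 to between 132 (25S covariate) and 1192 (array weights) between the mutants. The cause was not tested. Deviations of same-numbered arrays of different genotypes correlated at -0.04 to 0.23, and those of differently numbered arrays at -0.32 to 0.20. Array 3 was the lowest of each genotype for AT1G47400 and PYE. Whether the replicate numbers pair the arrays cannot be settled from these values. With the replicate block AT1G47400 had the same change between the triple mutant and wild type, 1.13, with an SE of 0.14, and 20 probe sets were called there in place of 13. BHLH101 was under the limit for testing outside the triple mutant.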
